A study of Mus musculus with 7 samples.

Results

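The chemokines Cxcl9 and Cxcl10 and their shared receptor Cxcr3 were followed across the cells of 7 mouse glioma libraries. The 3 genes were chosen by their measured levels in these libraries and found by symbol among the 32285 genes measured, so their levels across cell classes are a description without a test. Cxcl11, the remaining ligand, was not among the genes in the count tables and was not analysed here. In the GENCODE annotation of GRCm38, the genome of the C57BL/6 strain, it is listed as a polymorphic pseudogene.

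The tumours were grown in wild-type C57BL/6 mice from NSCG-mCherry, a glioma line labelled EGFRvIII+ and Arf/Ink4a-/-, and were measured as whole tumours by 10x Genomics 3′ single-cell RNA sequencing. The series set out to follow how tumour cells and their immune surroundings adapt to immunotherapies. The 5 groups were UT (untreated, 1 library), IgG (IgG2b isotype control at 10 mg/kg, 2 libraries), BP (B20, an anti-VEGF antibody, at 5 mg/kg with anti-PD-L1 at 10 mg/kg, 2 libraries), BPI (the BP antibodies with 10 mg/kg IPI-145, a PI3K inhibitor, 1 library) and CD40 (anti-CD40 agonist at 100 µg per dose, 1 library). The antibodies of IgG, BP and BPI were given every 3 days for 3 rounds, first on day 6 or 7. Anti-CD40 was given as 2 doses 5 days apart. Mice were 7 to 10 weeks old, tissue was taken at about day 14, and each group pooled at least 2 mice. A library is therefore 1 sample, and variation between mice could not be measured. The labels do not say whether the CD40 mice also received a dendritic cell vaccine.

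Cxcl9 and Cxcl10 are small secreted proteins that attract cells carrying Cxcr3, a receptor of activated T cells, NK cells and plasmacytoid dendritic cells. Both ligand genes are well-known targets of interferon gamma. Cxcl10 also responds to type I interferons through interferon-stimulated response elements. In brain tumours, myeloid cells are a known source of these ligands and T cells are their best-known targets.

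The ligand genes are neighbours on the minus strand of chromosome 5 in GRCm38. Cxcl9 (ENSMUSG00000029417) lies at chr5:92321347-92328079 and Cxcl10 (ENSMUSG00000034855) at chr5:92346638-92348889, with 18558 bases between them. Each has up to 4 exons in GENCODE. Cxcr3 (ENSMUSG00000050232) lies at chrX:101731535-101734269 on the minus strand, with 2 exons. The upstream sequences of the ligands are shown because the ligands shared some cell classes and parted in others. RefSeq's table of promoters (GRCm38.p6) held all 3 genes, and the 250 bases before the transcription start of each ligand are printed 5′ to 3′ on the gene's strand, chr5:92328080-92328329 for Cxcl9 and chr5:92348890-92349139 for Cxcl10. Capitals mark matches to 3 searched motifs.
Cxcl9: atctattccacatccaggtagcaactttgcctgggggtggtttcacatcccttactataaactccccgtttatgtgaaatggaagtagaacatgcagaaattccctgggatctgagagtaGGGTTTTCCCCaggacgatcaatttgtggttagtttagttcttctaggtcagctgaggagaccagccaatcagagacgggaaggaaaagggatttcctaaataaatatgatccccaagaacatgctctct
Cxcl10: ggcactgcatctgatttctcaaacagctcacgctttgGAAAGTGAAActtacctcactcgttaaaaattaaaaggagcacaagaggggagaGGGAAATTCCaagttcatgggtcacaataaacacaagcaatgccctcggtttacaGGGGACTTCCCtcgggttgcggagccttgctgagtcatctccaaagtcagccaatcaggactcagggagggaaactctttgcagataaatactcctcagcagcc
The motifs, searched on both strands, were an interferon-stimulated response element core (GAAA, any 2 bases, GAAA), an interferon gamma-activated site (TTC, any 3 bases, GAA) and a loose NF-kappaB pattern (GGG, any 5 bases, CC). The response element core stood once upstream of Cxcl10, as GAAAGTGAAA from 213 to 204 bases before the start, and 2.98% of the 32851 promoter windows of the same length hold it. It was not among the letters upstream of Cxcl9. The NF-kappaB pattern matched both ligands, with 2 overlapping matches for Cxcl9 and 3 for Cxcl10, 2 of which overlap. That pattern occurs in 45.8% of all windows. The activated-site pattern matched neither window and occurs in 7.02% of all. A match describes letters only, and no readout of promoter use was part of these data.

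Depth was 68997476 to 186793886 UMIs (unique molecular identifiers, each counting 1 captured transcript) per library. After filters on depth and mitochondrial share and removal of 3207 called doublets, 48588 cells remained. Each cell was placed in a class by the share of that class's marker genes with a UMI, and a class is called X-like for that reason. No class could be given to 12.8% of cells, and 9.50% had markers of several classes, most often in UT (22.5%). In all libraries the median tumour-like cell had 8 of 12 tumour markers, while the T marker list summed to at most 5.74 CPM (UMIs of a gene scaled to a common total of UMIs per class and library) in that class. Myeloid lists were higher there, with the macrophage list of 12 genes at 132 to 379 CPM, the myeloid lineage list of 6 genes at 14.9 to 71.9 and the monocyte list of 6 genes at 1.06 to 57.1. Of the 3396 monocyte-like or macrophage-like cells, 9.33% lay within 0.1 of equal scores, so that the class of these cells was a near tie. Any pair of libraries shared 0 to 26 cell barcodes. The library numbers in the labels place IgG replicate 1, BP replicate 2 and BPI in one run of consecutive numbers, and CD40 and IgG replicate 2 in another. BP replicate 1 and UT stand outside these runs, and UT carries another barcode list than the other 6 libraries. Differences between libraries cannot be told apart from what these runs of numbers stand for, and values within a run are given beside the others. Intervals are exact 95% intervals (Poisson for counts, Clopper-Pearson for shares). For a count of 0 the limit is set at 3 counts. Intervals and limits cover counting error only.

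Cxcl9 was ranked among classes with at least 20 cells, with myeloid cells of no subclass left aside. It was highest in monocyte-like or macrophage-like cells in 6 of 7 libraries, all but IgG replicate 2. With smaller classes counted, Cxcl9 in BP replicate 1 was higher in 16 endothelial-like cells than in monocyte-like cells. In IgG replicate 2 it was higher in 15 monocyte-like cells than in endothelial-like cells, the first-ranked class there. In monocyte-like cells it stood at 21.7 CPM in IgG replicate 1 (42 cells), 15.8 in IgG replicate 2 (15 cells), 1230 in BP replicate 1, 1202 in BP replicate 2, 3195 in BPI, 389 in CD40 (28 cells) and 1246 in UT. Both IgG libraries were low, the BP libraries were alike and UT was level with them. In macrophage-like cells it was 112 CPM in IgG replicate 1, 0 in IgG replicate 2, 672 in BP replicate 1, 444 in BP replicate 2, 1684 in BPI, 59.4 in CD40 and 1571 in UT. The IgG replicate 1 value came from 39 UMIs, 37 of them in a single cell. None of 71 macrophage-like cells of IgG replicate 2 had a UMI, which allows a level of up to 2.38 CPM. Monocyte-like cells were above macrophage-like cells in CPM in both BP libraries and BPI and below them in UT, with intervals that did not overlap. These intervals cover counting error only, and the UMIs were unevenly spread over cells. A Cxcl9 UMI was seen in 286 of 501 monocyte-like and 711 of 1209 macrophage-like cells of BP replicate 1. The counts were 60 of 147 and 24 of 77 in BP replicate 2, and 333 of 471 and 45 of 101 in BPI. They were 186 of 281 and 222 of 286 in UT. By these shares, not adjusted for depth, BP replicate 1 lost the order and BP replicate 2, BPI and UT kept it. In CD40 a single cell held 58 of the 104 monocyte-like UMIs and another 85 of the 147 macrophage-like UMIs, so that neither CD40 nor IgG replicate 1 places the classes.

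The other named myeloid classes held less Cxcl9 or were few. Myeloid cells of no subclass held 534 Cxcl9 UMIs in BP replicate 1 (104 cells) and 91 in BP replicate 2 (19 cells). They held 378 in BPI (40 cells) and 539 in UT (41 cells). In each of these libraries that was more than microglia-like or dendritic-like cells held. Microglia-like cells, the brain's resident macrophages, had 1.30 and 0.139 CPM in IgG (1 UMI in each library), 158 and 13.5 in BP, 119 in BPI, 6.30 in CD40 and 133 in UT. All 7 UMIs of BP replicate 2 lay in 1 of 152 cells, whereas 36 of 159 cells of BP replicate 1 had one. Dendritic-like cells had 235 CPM in BP replicate 1 (74 cells) and 622 in UT (31 cells), the libraries with at least 20 such cells. Tumour-like cells stayed between 0.0300 CPM (CD40) and 17.4 CPM (UT). An estimated 33.5% of their Cxcl9 UMIs in BP replicate 1 and 27.9% in UT could be free RNA, taken from droplets with 10 to 100 UMIs. In IgG replicate 2 all 63 tumour-like Cxcl9 UMIs lay in 4 of 5874 cells. T-like and NK-like cells were at or below 9.87 CPM in every library.

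Endothelial-like cells were few, and their Cxcl9 level was high in 3 libraries. The level was 4.46 CPM in IgG replicate 1, 1.44 in IgG replicate 2, 1605 in BP replicate 1, 597 in BPI, 1.82 in CD40 and 1057 in UT. BP replicate 2 held 5 such cells and no UMI, too few to place. The BP replicate 1 value rested on 259 UMIs in 4 of 16 cells. The BPI value rested on 101 UMIs in 6 of 23 cells, 63 of them in a single cell. The UT value rested on 453 UMIs in 14 of 46 cells, 157 of them in a single cell. The Cxcl9-carrying endothelial-like cells had a median of 9 of 9 endothelial markers in BP replicate 1 and UT and 7.5 in BPI. In UT those 14 cells held 126 Cdh5 UMIs, an endothelial junction gene, against 6 of the myeloid gene Lyz2 and 4 of the macrophage gene C1qa. The endothelial markers, Cdh5 among them, and Lyz2 also placed the cells in their class, so they are no separate sign of identity. The cells with Cxcl9 had a median of 1 myeloid lineage marker in BP replicate 1, BPI and UT, against 0 in those without. In UT the cells with Cxcl9 were also deeper, with a median of 15884.5 UMIs against 3485 in the endothelial-like cells without Cxcl9. The part of depth in this was not tested. Cxcl10 followed the same split in this class, at 8.92 and 4.32 CPM in IgG, 440 in BP replicate 1, 437 in BPI, 5.93 in CD40 and 943 in UT.

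Cxcl10 was abundant outside the myeloid classes too. In tumour-like cells it was 24.3 CPM in IgG replicate 1, 10.0 in IgG replicate 2, 495 in BP replicate 1, 97.2 in BP replicate 2, 428 in BPI, 2.33 in CD40 and 859 in UT. Each BP library was above each IgG library, and the UT library was above all. The share of tumour-like cells with a Cxcl10 UMI was 12.8% and 2.72% in IgG, 72.3% and 23.3% in BP, 47.3% in BPI, 2.08% in CD40 and 80.4% in UT. With each cell thinned to 1000 UMIs the shares were 2.16% and 0.511%, 24.3% and 5.67%, 19.3%, 0.267% and 33.7%, in the same order. For comparison, T-like cells of BP replicate 1 gave 3.08% thinned and 14.7% unthinned, with a median of 6439 UMIs against 21176 in tumour-like cells. That order did not hold in every library. In CPM, T-like cells were below tumour-like cells in BP replicate 1 (28.7), BPI (155) and UT (78.4). They were above them in BP replicate 2 (155), CD40 (64.5), IgG replicate 1 (66.3, from 6 UMIs) and IgG replicate 2 (24.8, from 5 UMIs). Free RNA was estimated at 2.08% to 8.28% of the tumour-like Cxcl10 UMIs in 6 libraries and at 29.2% in CD40.

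Among myeloid classes, monocyte-like cells held the most Cxcl10 per UMI in 5 of 7 libraries. The small dendritic and neutrophil classes and myeloid cells of no subclass were left aside. The monocyte-like level was 1236 CPM in IgG replicate 1, 63.4 in IgG replicate 2, 1183 in BP replicate 1 and 2133 in BP replicate 2. It was 2819 in BPI, 29.9 in CD40 and 2952 in UT. IgG replicate 1 was thus level with BP replicate 1, and the groups overlapped. Macrophage-like cells had 94.5 and 48.3 CPM in IgG, 226 and 742 in BP, 761 in BPI, 69.9 in CD40 and 1070 in UT. Microglia-like cells had 419 and 174 CPM in IgG, 380 and 253 in BP, 1690 in BPI, 181 in CD40 and 634 in UT. Here Cxcl10 was present in the isotype controls at the level of the BP libraries, unlike Cxcl9, which was nearly undetected in IgG microglia-like cells. NK-like cells, the innate killer lymphocytes, had 212 CPM in IgG replicate 1, 41.6 and 432 in BP, 318 in BPI, 224 in UT and 0 in both IgG replicate 2 (12 cells) and CD40 (39 cells), and T-like cells had 24.8 to 155 CPM over all 7 libraries.

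**Figure D1:**
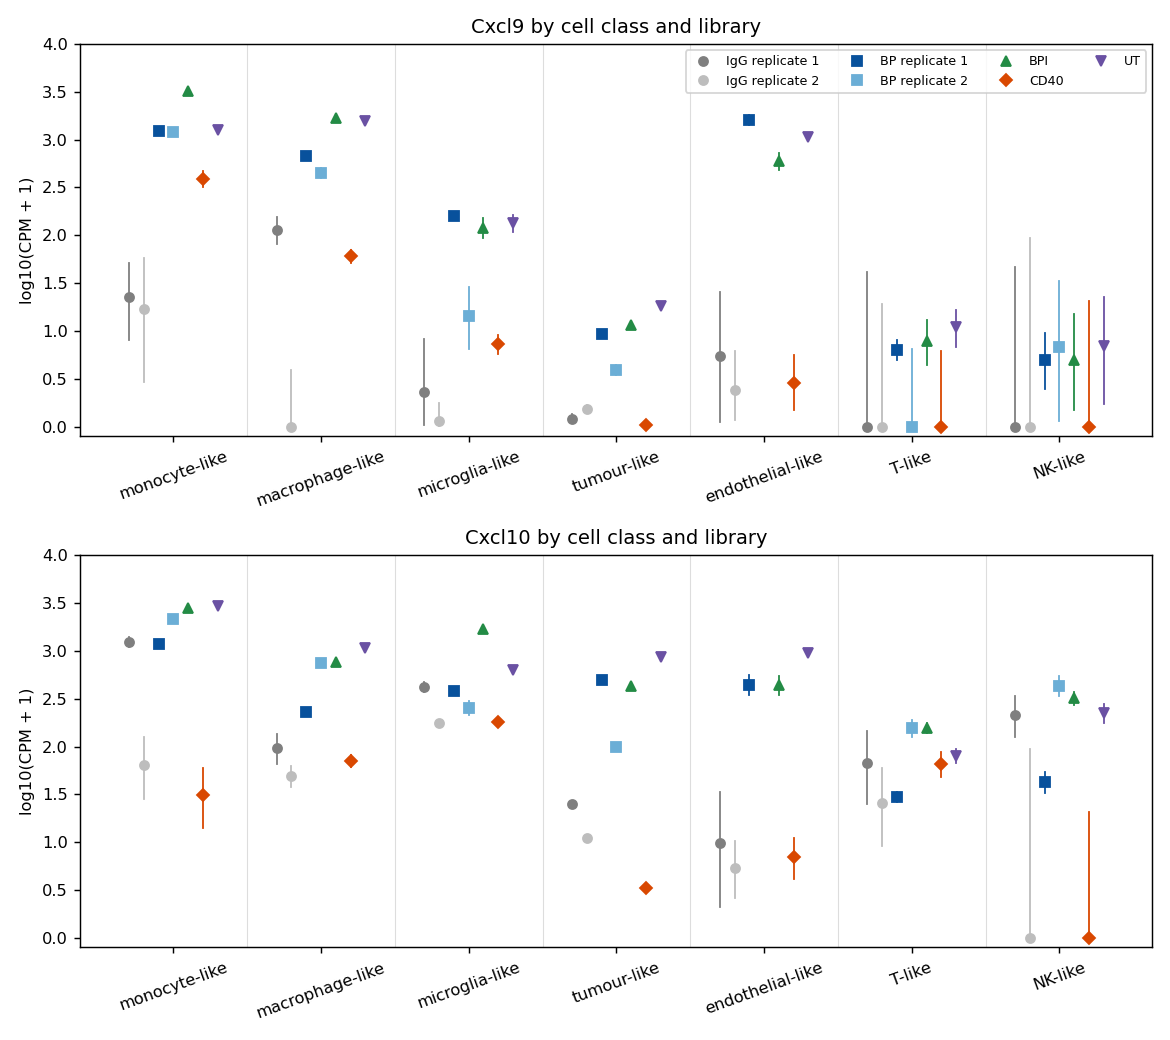
Level of Cxcl9 (top) and Cxcl10 (bottom) as log10(CPM + 1) in each cell class, with 1 point per library and bars for the exact 95% Poisson interval; classes with under 10 cells in a library are left out. Cxcl9 is high in monocyte-like and macrophage-like cells and in some endothelial-like cells of BP replicate 1, BPI and UT, whereas Cxcl10 reaches 859 CPM in tumour-like cells of UT and is also present in IgG microglia-like cells.

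Counting where the transcripts lay, and not how dense they were, separated the ligands in the BP libraries, BPI, CD40 and UT. Monocyte-like and macrophage-like cells together held 76.8% ± 0.936 (SD, n = 2) of all Cxcl9 UMIs in the BP libraries. They held 83.9% in BPI, 69.7% in CD40 and 69.3% in UT, and were 2.11% to 17.7% of cells in BP, BPI, CD40 and UT. In IgG replicate 1 they held 68.8% of 64 Cxcl9 UMIs, 37 of them in a single cell. In IgG replicate 2 they held 2.70% of 74, and tumour-like cells held 85.1%. Tumour-like cells held 59.3% ± 1.78 (SD, n = 2) of all Cxcl10 UMIs in BP, 56.9% in BPI, 50.3% in UT, and 55.0% and 45% in the IgG libraries. They were 39.7% and 61.6% of cells in BP, 52.2% in BPI, 33.5% in UT, and 65.3% and 78.4% in IgG, so that only in BP replicate 1, BPI and UT did they hold more of the UMIs than of the cells. CD40 was the exception, with 10.5% in tumour-like cells and 75% in microglia-like cells. IgG replicate 2 also had a large microglia-like part, 47.2%. Those libraries had the most microglia-like cells, 10.7% and 9.06% of all cells. Ambiguous cells held another 25.4% of the Cxcl10 UMIs in BP replicate 1 and 28.9% in UT, so the shares depend on how such cells are placed. With cells thinned to 1000 UMIs the tumour-like share in BP was 39.3%.

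**Figure D2:**
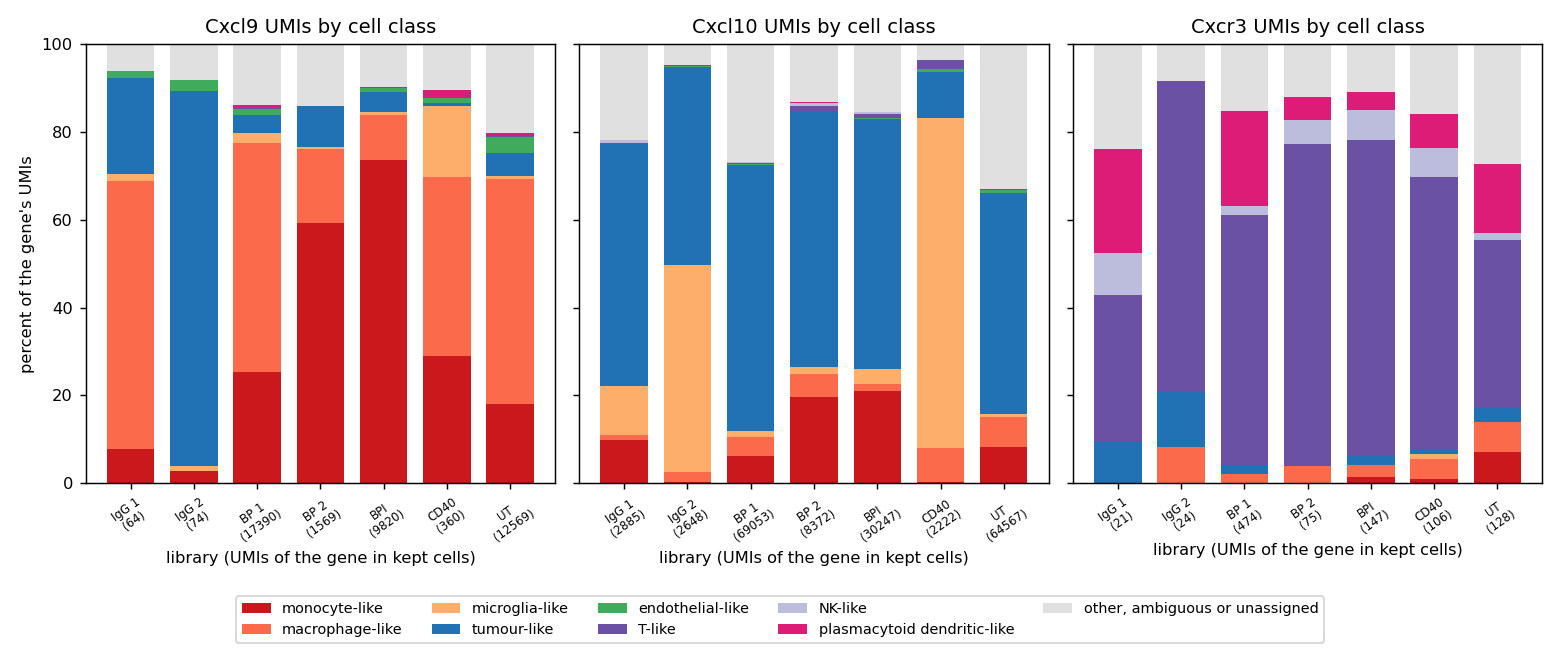
Percent of each gene's UMIs by cell class in each library, with the gene's UMI total in kept cells under each bar. Cxcl9 lies mostly in monocyte-like and macrophage-like cells in all libraries but IgG replicate 2 (74 UMIs), Cxcl10 mostly in tumour-like cells except in CD40 and IgG replicate 2 (10.5% and 45%), and Cxcr3 mostly in T-like and plasmacytoid dendritic-like cells.

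Within a class the ligands were unevenly spread over cells. In BP replicate 1 the richest 10% of monocyte-like and macrophage-like cells held 59.9% of their Cxcl9 UMIs, and in BP replicate 2, BPI and UT it held 69.5%, 44.5% and 51.2%. A positive cell had a median of 6 Cxcl9 UMIs in BP replicate 1, 8.5 in BP replicate 2, 14 in BPI and 11 in UT, and the highest cell had 181. The richest 10% of tumour-like cells held 61.3% of their Cxcl10 UMIs in BP replicate 1, 57.7% in UT, 69.7% in BPI and 89.3% in BP replicate 2, against 93.3% in IgG replicate 1. In microglia-like cells of IgG replicate 2, 87 of 679 cells held all Cxcl10 UMIs, and a single cell had 276 of the 1250.

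Monocyte-like and macrophage-like cells with Cxcl9 more often had Cxcl10 as well. Thinned to 1000 UMIs, 30.7% of cells with a Cxcl9 UMI also had a Cxcl10 UMI in BP replicate 1, against 17.6% of the other cells. The pair of values was 58.3% against 28.0% in BP replicate 2, 63.8% against 46.7% in BPI and 59.6% against 49.1% in UT. The direction was the same in all 4 libraries. Relative to independent detection, both ligands were seen together 1.51 ± 0.144 (SD, n = 2) times as often in the thinned BP libraries and 1.20 ± 0.120 (SD, n = 2) times without thinning, and 1.14 and 1.10 times in thinned BPI and UT. In BP replicate 1, 380 thinned cells had Cxcl9 without Cxcl10, against 168 with both. Monocyte-like and macrophage-like cells were pooled here. In BP replicate 1 alone, the Cxcl10 share among Cxcl9-carrying cells was 51.3% for monocyte-like and 19.6% for macrophage-like cells. Among cells without Cxcl9 it was 30.6% and 12.8%. Detection together relative to independence was 1.33 and 1.32 there, against 1.41 for the pool. Each class taken alone had the same direction in BP replicate 2, BPI and UT.

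**Figure D3:**
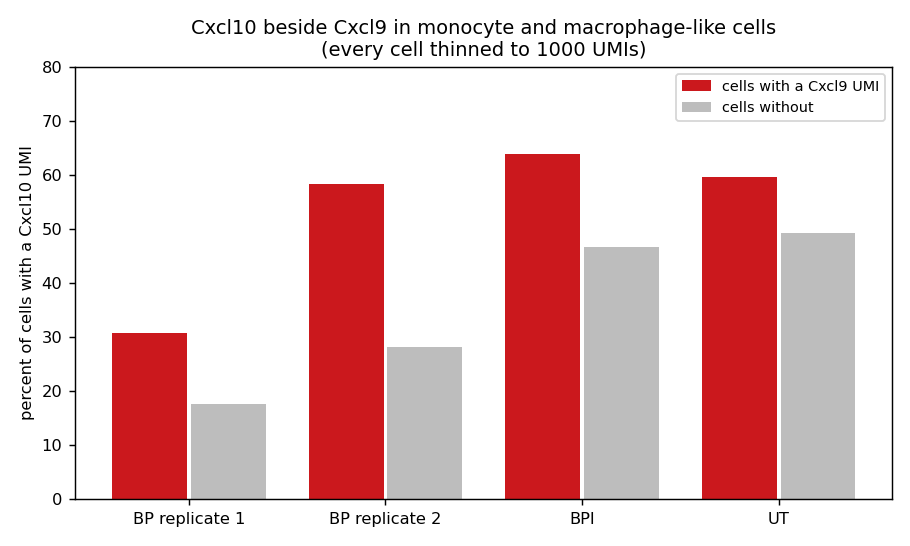
Percent of monocyte-like and macrophage-like cells with a Cxcl10 UMI, in cells with a Cxcl9 UMI (red) and without (grey), with every cell thinned to 1000 UMIs, in BP replicate 1, BP replicate 2, BPI and UT. The red bar is the taller in each library, from 30.7% against 17.6% in BP replicate 1 to 63.8% against 46.7% in BPI.

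The receptor was densest in T-like and plasmacytoid dendritic-like cells. In T-like cells Cxcr3 stood at 77.3 CPM in IgG replicate 1 (29 cells), 84.4 in IgG replicate 2 (51 cells), 29.5 in BP replicate 1, 82.5 in BP replicate 2, 65.2 in BPI, 92.6 in CD40 and 26.9 in UT. BP replicate 1 and UT were low and the other 5 libraries lay together. The low pair had medians of 6439 and 5103.5 UMIs per T-like cell, against 2630 to 4901.5 in the others. The share of T-like cells with a Cxcr3 UMI was 20.7% and 15.7% in IgG, 18.1% and 22.8% in BP, 18.5% in BPI, 36.1% in CD40 and 13.6% in UT. Tumour-like cells, which should lack the receptor, gave at most 0.235% at a median of 21176 UMIs. The CD40 share had an interval of 27.6% to 45.3% and thinned to 12.3%, against 13.8% thinned in IgG replicate 1 and 5.88% in IgG replicate 2.

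Plasmacytoid dendritic-like cells, the blood-derived producers of type I interferon, also carried Cxcr3, at 55.4 CPM in BP replicate 1 (196 cells), 71.3 in BPI (29 cells) and 57.7 in UT (36 cells). Of these cells 34.2%, 13.8% and 30.6% had a UMI. NK-like cells had less, with 24.9 CPM in IgG replicate 1 (2 UMIs), 6.60 and 23.3 in BP, 19.6 in BPI, 37.6 in CD40 and 6.04 in UT. Their interval lay below that of T-like cells in both BP libraries and BPI, and overlapped it in the other 4 libraries. Dendritic-like cells had 10.5 CPM in BP replicate 1 (3.87 to 22.9; 6 UMIs in 74 cells) and 1 UMI in UT. Monocyte-like and macrophage-like cells together were at 0 to 3.04 CPM, and in UT they held 18 Cxcr3 UMIs (14.1% of the total), against 2 in NK-like cells. Microglia-like cells gave 1 Cxcr3 UMI over all libraries, and in IgG replicate 2 none of 679 cells had one, which allows a share of cells with a UMI of up to 0.442%. No endothelial-like cell had one either, with 0 of 131 cells in CD40 allowing up to 2.29%. These limits are on cells with a UMI, not on cells expressing the gene, since most T-like cells had no Cxcr3 UMI either.

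T-like cells held 65.0% ± 11.7 (SD, n = 2) of the Cxcr3 UMIs in BP, and 33.3% to 72.1% in the other libraries, where the totals were 21 to 147 UMIs. Plasmacytoid dendritic-like cells held 21.7% in BP replicate 1 and 15.6% in UT. Within the T class, all subsets that could be told apart by Cd8, Cd4 and Foxp3 UMIs carried the receptor. In BP replicate 1 it was at 29.2 CPM (24.2 to 35) in 445 CD8 cells, 24.2 CPM (18.6 to 31.0) in 302 Foxp3-negative CD4 cells and 46.9 CPM (35.5 to 61.0) in 171 cells with Foxp3, the factor of regulatory T cells. The Foxp3 interval did not overlap the other 2 in that library, but the shares of cells with a UMI had overlapping intervals. These shares were 24.0% (17.8% to 31.1%) for Foxp3, 20.7% (17.0% to 24.7%) for CD8 and 13.6% (9.92% to 18.0%) for Foxp3-negative CD4 cells, and the Foxp3 interval met both others. In BP replicate 2 and BPI the CD8 values were 90.7 and 66.4 CPM, and the Foxp3 groups had 8 and 12 cells. In UT the CD8, CD4 and Foxp3 values were 25.6, 22.1 and 27.6 CPM with overlapping intervals, and no order of the subsets was seen there.

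**Figure D4:**
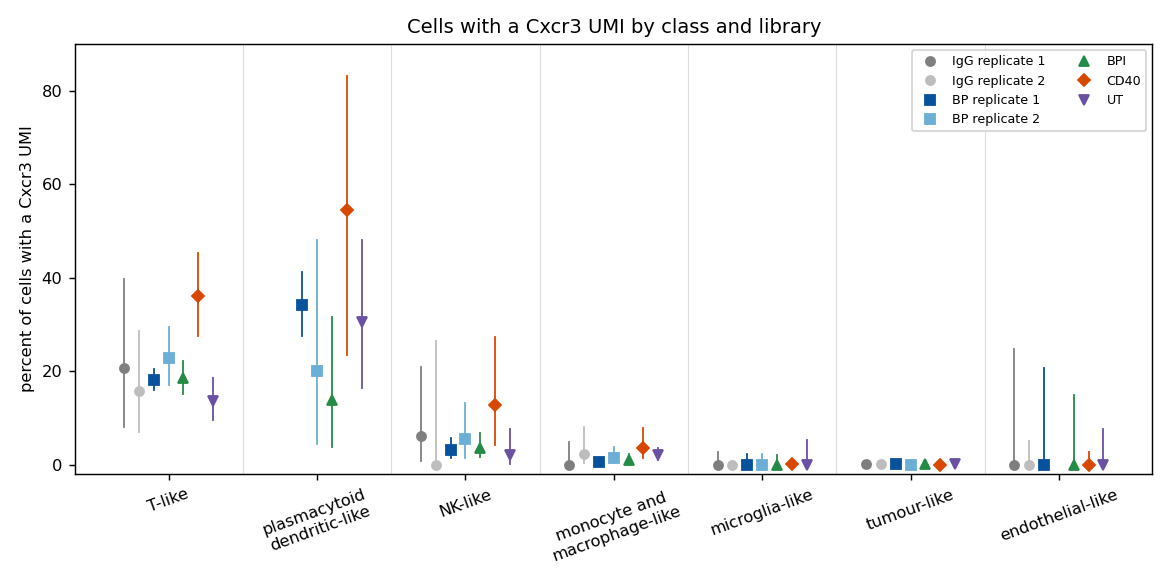
Percent of cells with a Cxcr3 UMI by class, with 1 point per library and exact 95% Clopper-Pearson intervals; classes with under 10 cells in a library are left out. T-like cells lie between 13.6% and 36.1% and plasmacytoid dendritic-like cells between 13.8% and 54.5%, whereas tumour-like cells stay at or below 0.235%.

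BP was the only treatment with replicate libraries, and it was compared with IgG in all cells and in 4 classes. The test was edgeR's quasi-likelihood test on summed counts with Benjamini-Hochberg adjustment over all genes tested, at an adjusted p of 0.05. No member passed in any of the 5 comparisons as planned, although some passed under single alternatives given below. Because the members were proposed with results of these data in view, their differences are read as sizes.

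In monocyte-like and macrophage-like cells together, Cxcl9 was at 75.9 and 1.44 CPM in IgG and 789 and 872 in BP. The groups did not overlap, and the log2 difference was 4.56 ± 1.32 (SE) with an edgeR adjusted p of 0.389. Leaving out IgG replicate 1, whose Cxcl9 came mostly from 1 cell, gave 9.24 (adjusted p 0.00108), with the lone IgG library assumed to vary like the BP libraries. Leaving out IgG replicate 2, BP replicate 1 or BP replicate 2 gave 3.48, 4.85 and 4.41 (adjusted p 0.445, 0.570 and 0.157), and UT pooled with IgG gave 0.49. Within the run of consecutive numbers the ratio of BP replicate 2 to IgG replicate 1 was 11.5 (8.50 to 15.9). Cxcl10 in the same cells was at 549 and 49.7 CPM in IgG and 428 and 1527 in BP, so the groups overlapped, with a log2 difference of 1.81 ± 1.11 (SE) and an edgeR adjusted p of 0.804. The Cxcl10 difference was 4.45 without IgG replicate 1, 0.93 without IgG replicate 2, 2.57 without BP replicate 1 and 0.42 without BP replicate 2. The monocyte-like part of these cells differed between libraries, with 42 of 73 and 15 of 86 cells in IgG and 501 of 1710 and 147 of 224 in BP, and in macrophage-like cells alone both BP libraries were above both IgG libraries for Cxcl10. Without a filter on low counts edgeR called both ligands here (adjusted p 7.45e-14 for Cxcl9 and 0.0104 for Cxcl10). No gene was called among 9170 tested in these cells (percent called 0), while 733 had an unadjusted p under 0.05 and DESeq2 called 120.

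In tumour-like cells the Cxcl10 difference was 3.98 ± 0.94 (SE) on the log2 scale, with an edgeR adjusted p of 0.999 beside an unadjusted 0.0100. Within the run of consecutive numbers BP replicate 2 was 4.0-fold (3.78 to 4.24) above IgG replicate 1, and over all 4 pairs of BP and IgG libraries the ratio went from 4.0 to 49.4. Cxcl9 in tumour-like cells differed by 3.85 ± 0.78 (SE), from levels under 10 CPM in all 4 libraries. Leaving out 1 library moved the log2 difference from 3.07 to 4.53 for Cxcl9 and from 2.58 to 4.86 for Cxcl10. Of the myeloid markers in tumour-like cells, the monocyte list went closely with Cxcl10 over libraries, and the other lists less so. The monocyte list summed to 12.4 and 1.06 CPM in IgG, 52.9 and 22.3 in BP, 36.2 in BPI, 2.06 in CD40 and 57.1 in UT. It ordered the libraries as tumour-like Cxcl10 did, except that CD40 and IgG replicate 2 changed places. In IgG replicate 2, 1 marker of that list, Chil3, was at 0, and no marker of the list was at 0 elsewhere. The myeloid lineage list stood at 14.9 and 18.0 CPM in IgG, 71.9 and 17.7 in BP, 20.7 in BPI, 24.4 in CD40 and 67.2 in UT. The macrophage list stood at 221 and 132 in IgG, 278 and 286 in BP, 295 in BPI, 177 in CD40 and 379 in UT. The part of these markers in the tumour-like ligand differences was not tested. With UT counted among the controls the tumour-like log2 differences were -0.08 for Cxcl10 and -0.16 for Cxcl9. No gene was called among 18400 tested (percent called 0), with 305 at an unadjusted p under 0.05 and 35 by DESeq2, which called both ligands (adjusted p of 0.00228 for Cxcl10).

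In microglia-like cells the fitted differences of the ligands were unlike, and that of Cxcl9 rested mostly on BP replicate 1. The log2 difference of Cxcl10 between BP and IgG was 0.12 ± 0.47 (SE), with 0.999 as its edgeR adjusted p, and its sign turned when IgG replicate 2 or BP replicate 1 was left out, to -0.33 and -0.17. Cxcl9 differed by a fitted 8.16 ± 1.48 (SE) with an edgeR adjusted p of 0.498. It passed the filter on low counts through the BP libraries, with 395 and 7 UMIs, and was not tested without BP replicate 1 or with classes from clusters, where the filter removed it. Of the 11 alternatives that tested it, 3 gave a call: without a filter (4.97e-31), with crossed replicate numbers (0.0104) and without BP replicate 2 (2.04e-07), and UT pooled with IgG lowered it to 1.01. Since each IgG library had 1 Cxcl9 UMI in this class, that fitted value depends on the prior count. With the Cxcl9 UMIs of BP replicate 2 in a single cell, no ratio within the run is given. No gene was called among 10073 tested (percent called 0), with 447 at an unadjusted p under 0.05 and 44 by DESeq2.

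In T-like cells Cxcr3 had a log2 difference of -0.82 ± 0.60 (SE) with 0.831 as its edgeR adjusted p, and the groups overlapped. It was -0.08 without BP replicate 1 and -1.87 without BP replicate 2. Within the run, BP replicate 2 was 1.07 times IgG replicate 1, with an interval of 0.485 to 2.78. CD8 cells made up 8 of 29 and 10 of 51 T-like cells in IgG and 445 of 1103 and 109 of 193 in BP. They held 0 and 1 Cxcr3 UMIs in IgG and 118 and 39 in BP. In IgG replicate 2, 4 Foxp3-negative CD4 cells held 12 of the 17 Cxcr3 UMIs of T-like cells. The part of this make-up in the difference was not tested. Here 0.0866 percent of the 5772 genes were called (5, all higher in BP; 465 at an unadjusted p under 0.05, 7 by DESeq2). None is a member or belongs to a pathway list. They were Ccl1, Gzmb, Ifitm1, Havcr2 and Mki67, named here after their values were seen. The 5 calls became 0 without IgG replicate 2, BP replicate 1 or BP replicate 2, and 78 without IgG replicate 1. Over the sum of all cells Cxcr3 was nevertheless higher in BP, by 3.21 ± 0.78 (SE), together with Cxcl9 (6.59 ± 0.90) and Cxcl10 (3.28 ± 0.71), each with an edgeR adjusted p of 1.0. Leaving out 1 library moved these differences from 5.33 to 7.26 for Cxcl9, 2.4 to 4.0 for Cxcl10 and 2.56 to 3.70 for Cxcr3. With UT pooled with IgG they were 0.21, -0.14 and 1.53. T-like cells were 0.488% and 0.681% of cells in IgG and 11.4% and 3.37% in BP. In such sums, more cells of a type and more RNA per cell cannot be told apart. No gene was called in all cells among 19993 tested (percent called 0), although 736 had an unadjusted p under 0.05 and DESeq2 called 395, including the 3 members.

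Other genes of the axis are given by list. Of 19 further interferon gamma targets, such as guanylate-binding proteins and antigen-processing genes, all 18 tested were above 0 in monocyte-like and macrophage-like cells, with a median log2 difference of 2.83. The count was 18 of 18 in tumour-like cells (median 2.69), 16 of 16 in microglia-like cells (median 2.57) and 12 of 13 in T-like cells (median 0.66). Over all genes tested the medians lay between -0.03 and 0.0050, and 47.6% to 50.5% of genes were above 0. No listed gene passed the edgeR threshold in any class. In monocyte-like and macrophage-like cells Cd274, which encodes PD-L1, differed by 3.13 ± 0.52 (SE) and Gbp2, a guanylate-binding protein, by 4.45 ± 0.95, with edgeR adjusted p-values of 0.262 and 0.286.

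Of 13 interferon receptor and signalling genes, all 13 were above 0 in tumour-like cells (median 0.48), in monocyte-like and macrophage-like cells (median 0.69) and in microglia-like cells (median 0.62), and 5 of 11 in T-like cells (median -0.01). Irf1, a transcription factor of the interferon response, differed by 3.15 ± 0.50 (SE) in monocyte-like and macrophage-like cells, with an edgeR adjusted p of 0.262. Ifng, which encodes interferon gamma, was in T-like cells at 44.2 and 104 CPM in IgG, 367 and 435 in BP, 1744 in BPI, 39.3 in CD40 and 303 in UT. The IgG replicate 1 value in T-like cells rested on 4 UMIs. The BP libraries were above the IgG libraries, the log2 difference was 2.09 ± 0.49 (SE) and the edgeR adjusted p was 0.129. With library size alone it passed the edgeR threshold (adjusted p 0.00475), as it did without a filter (9.82e-04), and it was 1.69 without IgG replicate 1 and 3.13 without IgG replicate 2. In NK-like cells Ifng was at 150 CPM in IgG replicate 1, 83.2 and 193 in BP, 249 in BPI, 118 in CD40 and 145 in UT, with no such split.

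Among the lymphocyte genes that go with Cxcr3, Tbx21, its known transcriptional activator, was at 77.3 and 74.5 CPM in IgG T-like cells, 161 and 72.0 in BP, 73.8 in BPI, 33.7 in CD40 and 174 in UT. The libraries high in Tbx21, BP replicate 1 and UT, were the ones low in Cxcr3. All 7 tested genes of this list were above 0 in T-like cells (median 0.64), while 3 of 7 other chemokine and egress receptors were (median -1.21). Dpp4, which cleaves and inactivates these ligands, was at 39.7 to 108 CPM in T-like cells over all libraries and differed by 0.54 ± 0.53 (SE), and it was at 1.44 to 14.2 CPM in monocyte-like and macrophage-like cells.

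The lone libraries are set side by side, with no test. BPI exceeded BP replicate 2, of the same run of numbers, 2.66-fold (2.48 to 2.85) for Cxcl9 in monocyte-like cells, 4.40-fold (4.27 to 4.55) for Cxcl10 in tumour-like cells and 6.69-fold (5.57 to 8.09) for Cxcl10 in microglia-like cells. BP replicate 1 was instead above BPI for tumour-like Cxcl10 (495 against 428 CPM) and microglia-like Cxcl9 (158 against 119), so the direction there turned with the BP library used. For Cxcl10 in macrophage-like cells the ratio of BPI to BP replicate 2 was 1.03 (0.898 to 1.17), and for Cxcr3 in T-like cells it was 0.790 (0.565 to 1.11). CD40 stood against IgG replicate 2, which had another dosing schedule, at 0.233 (0.202 to 0.268) for Cxcl10 in tumour-like cells. It stood at 1.04 (0.966 to 1.12) for Cxcl10 in microglia-like cells and 1.10 (0.636 to 1.99) for Cxcr3 in T-like cells. In the tumour-like ratio, 1 cell of IgG replicate 2 held 290 of its 1192 UMIs, and the highest CD40 cell had 29. A Cxcl10 UMI was seen in 109 of 5253 tumour-like cells of CD40 and 160 of 5874 of IgG replicate 2. Cxcl9 stood at 63.6 (17.4 to 528) in monocyte-like and macrophage-like cells and 45.2 (7.80 to 1817) in microglia-like cells, against 2 UMIs and 1 UMI in IgG replicate 2. IgG replicate 1, outside that run, stood closer, at 75.9 CPM against 91.6 in CD40 for monocyte-like and macrophage-like cells and 1.30 against 6.30 for microglia-like cells. Of the 251 CD40 UMIs behind the first value, 1 monocyte-like cell held 58 and 1 macrophage-like cell held 85. In tumour-like cells it stood at 0.0568 (0.0114 to 0.174), against 63 UMIs in 4 cells, and in endothelial-like cells at 1.27 (0.182 to 14.0). The single UT library, with its own barcode list and a number outside both runs, exceeded IgG replicate 1 35.4-fold (33.6 to 37.2) and IgG replicate 2 85.8-fold (81.0 to 91.0) for Cxcl10 in tumour-like cells.

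Across 58 sums of 1 class in 1 library with at least 20 cells, the genes ranked most like each member were found among 11665 genes. These points share libraries and depth, and the ranks are a description. For Cxcl9 they were Cfb (Spearman's rho 0.864), Gsdmd, Il18bp, Ly6i and Ifi202b (0.809). For Cxcl10 they were Eif2ak2 (0.839), Oasl1, Rsad2, Tor3a and Rtp4 (0.823), and for Cxcr3 Grap2 (0.806), P2ry10, Pkp3 and Sms (0.737). The ligands correlated with each other at 0.734 and with their receptor at -0.12 in both cases.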

How the data were processed

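The deposited values are raw UMI counts per gene and barcode for every listed barcode, made on mm10. The deposited count files name Cell Ranger 4 per the file headers, whereas the submitters' processing notes name Cell Ranger 7.0.1. The labels' protocols give V2 chemistry. The members and gene lists were chosen with earlier results of these data known, and the scoring of cells was set after the values were seen.

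Of all barcodes, 51795 had 1000 or more UMIs, 500 or more genes and no more than 15% of UMIs from mitochondria, and the top Scrublet scores, 0.8% per 1000 cells, were removed (scanpy 1.11.5). A lineage, such as tumour, myeloid or T, needed 3 markers with a UMI and a score of at least 2 times the next lineage. Within the myeloid lineage, a subclass such as macrophage-like, monocyte-like or microglia-like needed 2 markers and the highest score, with no such ratio. Free RNA was profiled in barcodes of 10 to 100 UMIs and its share in a class taken as the 2nd percentile of gene ratios. Levels are CPM of the class.

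Counts summed per library and class were tested with edgeR 4.0.16 (R 4.3.3; TMM, filterByExpr, Benjamini-Hochberg) in BP and IgG, in classes with at least 20 cells in each of the 4 libraries. DESeq2 1.42.0 was an alternative. In simulated data the test recovered, of 4-fold changes, 9.0% in all cells, 39.5% in tumour-like, 67.0% in monocyte-like and macrophage-like, 65.0% in microglia-like and 75.0% in T-like cells. False calls numbered 0, 5, 5, 2 and 7 in the same order. The changed genes were at or above the median level, with dispersions from the fitted trend, so the rates do not cover low genes. Nothing in the labels says that replicates came from separate experiments beyond separate libraries, and p-values measure the spread between these libraries. Always named were the members, Dpp4, Ifng, Irf1, Gbp2, Cd274 and Tbx21, up to 3 passing genes per list and class, and the 5 genes most like each member. Some genes under this rule are not reported here.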

Additional observations from a re-analysis of the deposited data

How the results depend on the processing

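The share of genes called depended on the tool, the filter and single libraries. DESeq2 called 2.00% of genes tested in all cells (395), 0.202% in tumour-like (35), 1.02% in monocyte-like and macrophage-like (120) and 0.404% in microglia-like cells (44), where edgeR called 0. Without a filter edgeR called 2.29% in monocyte-like and macrophage-like cells (470), 1.42% in microglia-like cells (289) and 0.674% in T-like cells (107 higher and 21 lower). In T-like cells library size alone gave 1.13% (65), a class ratio of 1.5 gave 0.234% (14) and UT pooled with IgG gave 0. Leaving out 1 library gave 0 to 2.09% in monocyte-like and macrophage-like cells (211 genes without IgG replicate 1, 146 without BP replicate 2), 0 to 4.42% in microglia-like cells (519 without BP replicate 2) and 0 to 0.972% in T-like cells (78 without IgG replicate 1). The replicate block gave 0 calls in each comparison. The libraries share only a number: deviations of same-numbered libraries correlated at -0.63 in all cells and -0.71 in tumour-like cells. Crossed numbers, added after seeing the data, gave 0.654% (60) in monocyte-like and macrophage-like, 0.119% (12) in microglia-like and 0.329% (19) in T-like cells. The cause of these changes was not tested.

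The share of Cxcl9 UMIs in monocyte-like and macrophage-like cells of BP was 84.3% with classes from clusters, 67.7% with doublet calls kept, 80.7% thinned and 78.6% with free RNA subtracted. The tumour-like share of Cxcl10 was 76.0% with clusters, 56.6% with doublet calls kept, 39.3% thinned and 69.3% at a class ratio of 1.5, and thinned co-detection was 1.51. Among named genes, pooling UT with IgG reversed the log2 difference of Cxcl10 in all cells (-0.14), tumour-like (-0.08) and microglia-like cells (-0.42), Cxcl9 in tumour-like cells (-0.16), and Irf1 (-0.12) and Tbx21 (-0.19) in T-like cells. Leaving out 1 library moved it from -0.91 to 1.87 for Cxcl10 and from -0.16 to 0.69 for Tbx21 in T-like cells, and from -0.33 to 0.84 for Cxcl10 in microglia-like cells. Subtracting free RNA gave -0.82 for Tbx21 in tumour-like cells.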
